A study of Homo sapiens with 6 samples.

Results

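The genes described here are 9 components of major histocompatibility complex (MHC) class I antigen presentation, chosen by gene name: the heavy chains HLA-B, HLA-C and HLA-E, the light chain B2M, the peptide transporter subunits TAP1 and TAP2, the loading factor TAPBP, and the immunoproteasome subunits PSMB8 and PSMB9. They are 9 of the 58735 genes of a count table from LoVo, a human colorectal cancer cell line that is known to lack functional B2M protein. Cells were transfected with a negative control small interfering RNA (si-NC) or with one against SRSF11 (si-SRSF11), a serine/arginine-rich splicing factor, and poly(A) RNA was sequenced in 3 libraries per group. All 9 genes passed the filter of at least 10 counts in at least 3 libraries.

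Class I molecules show fragments of a cell's own proteins to CD8 T cells. The proteasome, or its interferon-inducible form with PSMB8 and PSMB9 in place of the constitutive subunits, cuts proteins into peptides, TAP1 and TAP2 carry these into the endoplasmic reticulum (ER), and tapasin (TAPBP), calreticulin and PDIA3 help load them onto a heavy chain paired with B2M. Without B2M the classical heavy chains do not reach the cell surface in a stable form, and loss of B2M is a known route by which colorectal tumours with mismatch repair deficiency escape T cells.

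Apart from B2M on chromosome 15, the 9 genes lie in the MHC on chromosome 6, and several are known to share promoter elements. The windows below show those elements in 6 of them because the pathway is known to be switched as a unit by factors that bind there. They were cut from the 250 bases upstream of the RefSeq start sites (GRCh38.p14), and windows were found for 8 of the 9 members, all but HLA-E. Each is read 5′ to 3′ along the gene's strand, and capitals mark a match on either strand to the core of an interferon-stimulated response element (GAAANNGAA), a CCAAT box (CCAAT) or a cAMP response element half-site (TGACG). Neighbouring response element matches overlap in B2M, TAP1 and TAPBP.
HLA-B, chr6:31357221-31357295, minus strand: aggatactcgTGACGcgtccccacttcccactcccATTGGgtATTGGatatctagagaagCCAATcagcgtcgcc
HLA-C, chr6:31272134-31272294, minus strand: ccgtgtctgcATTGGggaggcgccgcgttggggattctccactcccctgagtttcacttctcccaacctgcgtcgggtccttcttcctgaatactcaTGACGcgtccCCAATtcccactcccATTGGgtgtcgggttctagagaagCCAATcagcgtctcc
B2M, chr15:44711363-44711482, plus strand: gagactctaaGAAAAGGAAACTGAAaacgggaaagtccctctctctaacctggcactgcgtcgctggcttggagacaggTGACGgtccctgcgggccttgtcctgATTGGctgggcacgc
TAP1, chr6:32853813-32853954, minus strand: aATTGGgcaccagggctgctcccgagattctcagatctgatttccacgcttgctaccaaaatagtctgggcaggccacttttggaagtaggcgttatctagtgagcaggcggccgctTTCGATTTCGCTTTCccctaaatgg
TAP2, chr6:32838760-32838807, minus strand: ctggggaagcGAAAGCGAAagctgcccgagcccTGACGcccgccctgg
TAPBP, chr6:33314079-33314108, minus strand: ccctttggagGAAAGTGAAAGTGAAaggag
The response element core was found in 4 members (B2M, TAP1, TAP2 and TAPBP) and in 6.88% of the 35116 human promoter windows. The CCAAT box was found in 5 members and in 32.0% of all windows, and the half-site in 6 members and in 21.2% of all windows. The CCAAT match of TAP1 and that of PSMB9 are the same bases, since these windows overlap on opposite strands, so this site is counted for both genes. The 8 members had 10 windows, since TAP1 and PSMB8 have more than 1. A member was counted if any of its windows matched, whereas the percentages count single windows. The promoter windows of HLA-B and HLA-C held several CCAAT matches and 1 half-site each, and no match to the response element letters. A match is a description of these letters only, and variants of them were not searched, so a promoter without a match may still hold such an element.

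The targeted gene was checked first. SRSF11 had 87.5, 84.1 and 87.3 CPM (counts relative to the library total, scaled by TMM) in the si-NC libraries and 50.4, 48.5 and 49.4 in the si-SRSF11 libraries, so 57.2% of the control level remained (log2 fold change -0.80, SE 0.054, edgeR adjusted p = 6.1e-10). Library totals were 14369525 to 16685719 counts. Mitochondrially encoded genes took 7.00% to 7.25% of counts in si-NC and 8.29% to 8.51% in si-SRSF11, and leaving them out kept the calls of the members at 3. Of 8 epithelial markers all were tested, and their summed level was 4775 to 5106 CPM in si-NC and 4852 to 5209 CPM in si-SRSF11, although the colon markers KRT20 and CEACAM5 stood at no more than 20 counts in any library. KRT8 made up most of that sum, and the intestinal factors CDX1 (log2 fold change 0.31, edgeR adjusted p = 0.0012) and CDX2 (0.40, 0.00038) were called higher. Of 9 leukocyte markers 5 were at 0 in all libraries, among them PTPRC, and the summed level was 3.48 to 4.10 CPM in si-NC and 3.83 to 4.59 CPM in si-SRSF11. Most of this was CD14, at 2.96 ± 0.342 CPM in si-NC and 3.77 ± 0.304 CPM in si-SRSF11 (edgeR adjusted p = 0.22). Of the 2 leukocyte markers tested none was called. The summed level of 6 fibroblast markers was 19.7 to 23.1 CPM in si-NC and 24.6 to 28.9 CPM in si-SRSF11, with DCN and LUM at 0 throughout and PDGFRB called higher (8.87 ± 1.46 and 14.4 ± 1.12 CPM, log2 fold change 0.70, edgeR adjusted p = 0.00023). COL1A1, at 12.7 ± 0.325 CPM in si-NC and 11.7 ± 1.24 CPM in si-SRSF11, made up most of the rest. It was not called (edgeR adjusted p = 0.47). The summed level of 3 endothelial markers was 1.47 to 2.56 and 0.796 to 2.04 CPM. The part of these shifts in the results below was not tested. The study describes pairs of independent RNA samples. Neither it nor the labels say whether the libraries of a group came from separate cultures or what a pair shares, so the p-values measure the spread between libraries.

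All 9 members were transcribed in control LoVo cells, B2M included. To compare genes, levels were expressed as CPM per 1000 exonic bases, with the gene length of the table. On this scale HLA-C was highest in si-NC at 129 ± 3.66 (SD, n = 3), above 98.1% of the tested protein-coding genes, followed by HLA-E at 75.8 ± 1.68 and HLA-B at 28.7 ± 0.289. B2M reached 23.4 ± 0.798, above 84.9% of tested protein-coding genes, and TAPBP 22.0 ± 0.903. PSMB8 stood at 12.7 ± 0.535 and TAP1 at 11.0 ± 0.396. The lowest were TAP2 at 3.75 ± 0.174 and PSMB9 at 1.51 ± 0.0897, above only 38.8% and 21.3% of those genes. The level of TAP2 carries the limit on its count given below. In si-NC each gene's 3 libraries stood apart from those of its neighbours in this order, whereas in si-SRSF11 the libraries of HLA-B (23.0 to 27.7) and TAPBP (23.5 to 24.6) overlapped, and B2M (19.3 to 20.4) came below both.

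**Figure D1:**
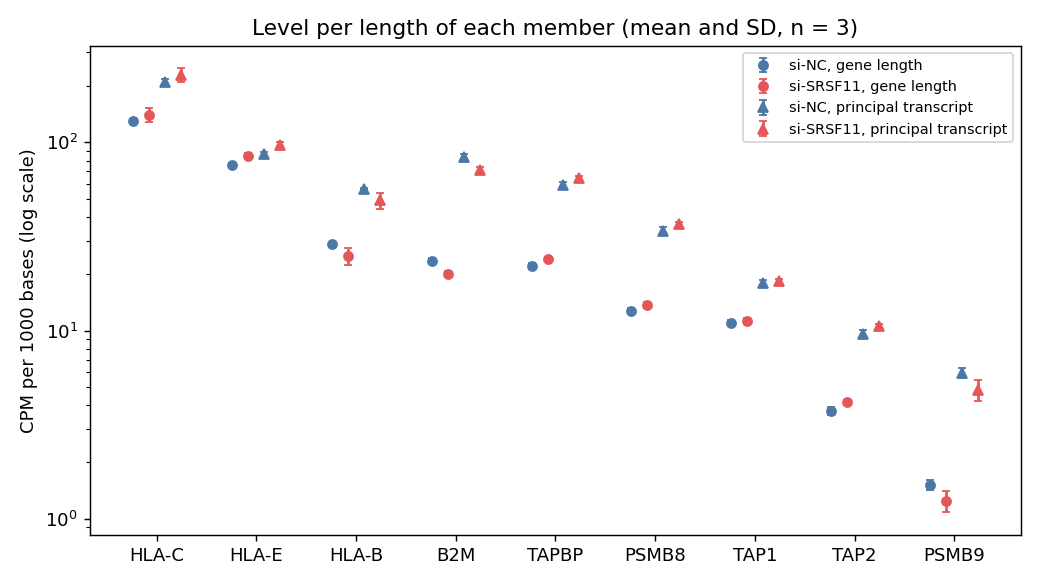
Level of each member in CPM per 1000 bases (log axis) in si-NC (blue) and si-SRSF11 (red), as mean and SD of 3 libraries, with the gene length of the table (circles) or the length of the principal transcript (triangles). HLA-C is highest and PSMB9 lowest on both scales, while B2M moves from 23.4 to 83.5 in si-NC when the principal transcript is used.

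The place of B2M in this order depended on the length used. The table gives B2M 6079 bases, the union of all annotated exons, whereas its principal transcript has 1705. With principal transcripts, an alternative added after the data were seen, B2M was at 83.5 ± 2.85 in si-NC, and its libraries (81.7 to 86.8) overlapped those of HLA-E (84.5 to 88.2). HLA-B at 56.6 ± 0.570 and TAPBP at 59.0 ± 2.42 then overlapped too, and HLA-C stayed highest at 210.0 ± 5.97. A transcript count carries no information on whether the B2M protein is made.

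Of the 9 members 1 was called higher and 2 lower after SRSF11 knockdown at an adjusted p under 0.05, and 6 were not called. Among the 15801 tested genes 24.6% were called, 13.2% higher (2081 genes) and 11.4% lower (1804 genes), so the share of members called was close to that of all genes. Scaling by library size alone gave 1588 higher and 2286 lower, and the members' calls stayed at 1 and 2. The groups did not overlap for 6 of the 9 members, 3 in each direction, against 38.8% of all tested genes. The median log2 fold change of the members was 0.11, and that of all tested genes was 0.00. The members together took 0.101% to 0.103% of the counts in si-NC and 0.101% to 0.108% in si-SRSF11.

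**Figure D2:**
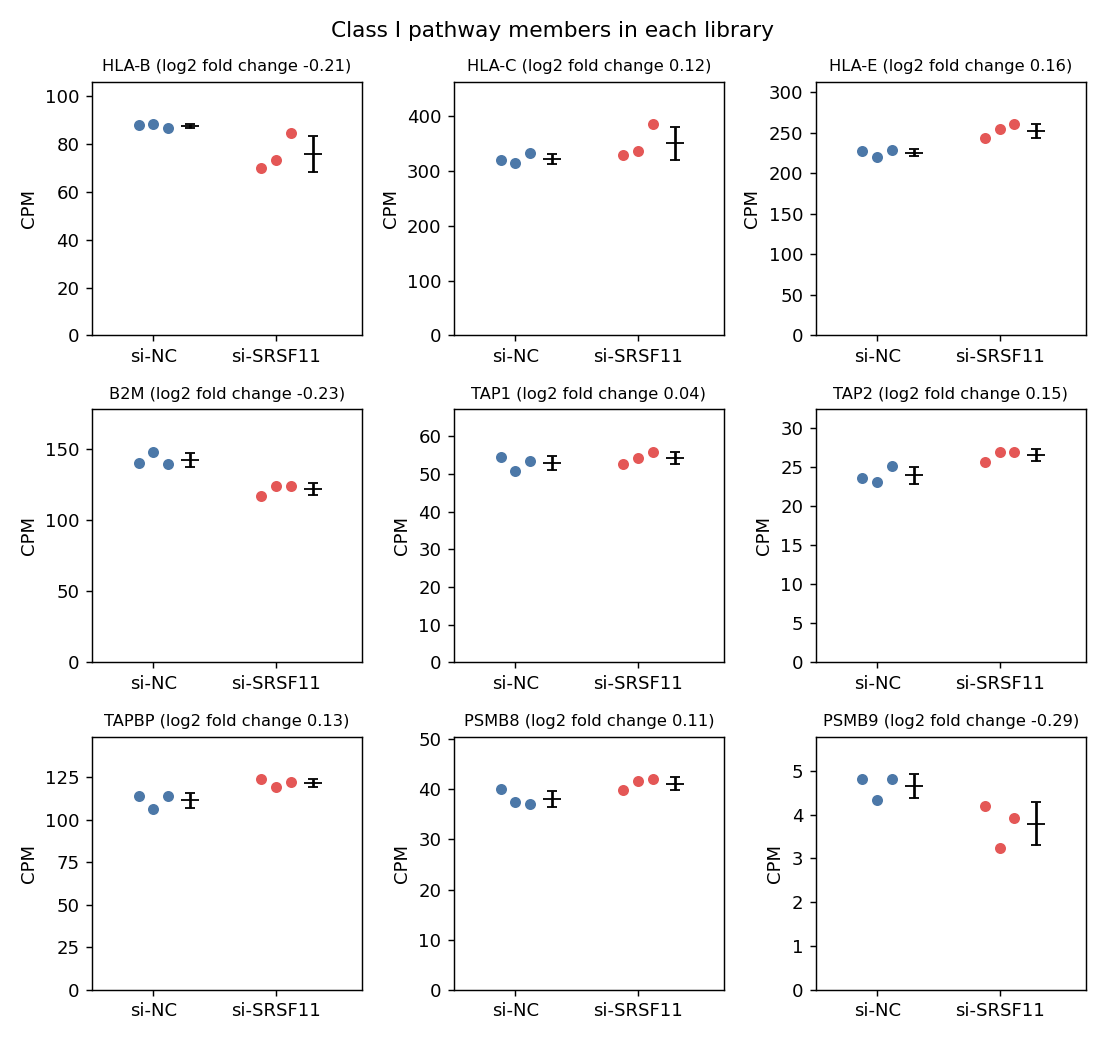
TMM-scaled CPM of the 9 members in each library (points in replicate order) with mean and SD, n = 3 per group, each axis from 0. B2M, HLA-B and PSMB9 are lower in every si-SRSF11 library than in any si-NC library, HLA-E, TAP2 and TAPBP higher, and HLA-C, TAP1 and PSMB8 overlap.

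B2M, the light chain that every classical class I heavy chain needs, had the smallest adjusted p of the 9. The gene (ENSG00000166710, chr15:44711487-44718877, plus strand) had 140, 148 and 139 CPM in si-NC and 117, 124 and 124 CPM in si-SRSF11. All 3 knockdown libraries lay below all 3 controls. The mean fell from 142 ± 4.85 to 122 ± 3.97 (log2 fold change -0.23, SE 0.048, edgeR adjusted p = 0.0014). In bulk RNA, fewer cells with the transcript and less of it per cell cannot be told apart. B2M shares no exon bases and no 100-base window with another annotated gene, and it was called lower under each of the 15 alternatives, with a log2 fold change between -0.26 and -0.20.

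The 3 genes whose log2 CPM followed B2M most closely over the 6 libraries, out of 8595 protein-coding genes with a mean log2 CPM of at least 4, were CCDC28A (Pearson r 0.9950), TIMM17B (0.9949), a subunit of the mitochondrial inner membrane translocase, and XRCC3 (0.9919). These r values describe 6 libraries that fall into 2 groups, and are given without a test.

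Among the heavy chains, HLA-B and HLA-E moved in opposite directions. HLA-B, a classical heavy chain (ENSG00000234745, chr6:31269491-31357188, minus strand), had 88.0, 88.2 and 86.6 CPM in si-NC and 70.1, 73.2 and 84.5 CPM in si-SRSF11. The third knockdown library stood well above the other two, but still below every control. HLA-B fell from 87.6 ± 0.882 to 75.9 ± 7.57 (log2 fold change -0.21, SE 0.061, edgeR adjusted p = 0.016). The call was lost when si-NC replicate 1 (adjusted p = 0.061), si-NC replicate 2 (0.062), si-SRSF11 replicate 1 (0.064) or si-SRSF11 replicate 2 (0.076) was left out in the edgeR fit, with the log2 fold change between -0.29 and -0.16 over the 6 such fits.

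HLA-E, the nonclassical chain that presents leader peptides of other class I molecules to the NKG2A receptor of natural killer cells (ENSG00000204592, chr6:30489467-30494205, plus strand), had 227, 220 and 229 CPM in si-NC and 243, 254 and 260 CPM in si-SRSF11. No knockdown library reached down to the controls. HLA-E rose from 225 ± 5.01 to 253 ± 8.57 (log2 fold change 0.16, SE 0.047, edgeR adjusted p = 0.013), a call that was lost without si-NC replicate 2 (adjusted p = 0.068).

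HLA-C, a classical chain that is also the main ligand of inhibitory killer immunoglobulin-like receptors (ENSG00000204525, chr6:31268749-31272130, minus strand), had 320, 315 and 333 CPM in si-NC and 330, 336 and 385 CPM in si-SRSF11. The groups overlapped, and the third knockdown library stood above the other 5. The difference was not called (323 ± 9.17 and 351 ± 30.3, log2 fold change 0.12, SE 0.054, edgeR adjusted p = 0.12), and it rested on single libraries: the log2 fold change was 0.04 without si-SRSF11 replicate 3 (0.54) and passed the threshold at 0.16 without si-SRSF11 replicate 1 (0.038). HLA-F, a nonclassical chain and not one of the 9, had 14.6 ± 1.17 CPM in si-NC and 13.6 ± 1.53 CPM in si-SRSF11 with overlap (log2 fold change -0.11, edgeR adjusted p = 0.51), and HLA-G was at 0 counts in every library.

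Ratios within a library do not depend on its scaling. The ratios of HLA-B to HLA-C and to HLA-E per length were added after the data were seen and are given without a test. The ratio of HLA-B to HLA-C was 0.226, 0.230 and 0.214 in si-NC and 0.174, 0.179 and 0.180 in si-SRSF11. The third knockdown library, high for both genes, was level with the other two here. The ratio of HLA-B to HLA-E was 0.377, 0.391 and 0.368 in si-NC and 0.281, 0.281 and 0.317 in si-SRSF11. Both ratios were lower in every knockdown library, which for HLA-E follows from the opposite directions of these genes already given.

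The ratio of B2M to the sum of HLA-B, HLA-C, HLA-E and HLA-F per length was 0.0975, 0.105 and 0.0947 in si-NC and 0.0803, 0.0827 and 0.0750 in si-SRSF11. The groups did not overlap, and the difference on the log2 scale was -0.32 (exact two-sided permutation p = 0.10, the smallest p that 3 libraries against 3 allow). The size of this ratio depends on the lengths: with principal transcripts its means were 0.231 and 0.187. When these 4 genes, HLA-G and the class I pseudogenes were summed into 1 feature, that sum had a log2 fold change of 0.09 (SE 0.048, edgeR adjusted p = 0.2) and was not called, while B2M stayed lower.

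Heavy chain genes resemble each other and differ between people, and reads were assigned on a reference genome. Of the 100-base windows of HLA-E 0.6% also occur in HLA-G, which had no counts, and of those of HLA-C 0.278% occur in the pseudogene HLA-H, which had 31 to 87 counts in a library. HLA-B shares 17.8% of its exon bases with an opposite-strand pseudogene, AL671883.2, which had at most 1 count in a library, and 1.15% with HLA-C on the same strand. Whether the alleles of LoVo differ from the reference enough to move these counts was not tested, and the counting strand is not given in the sources used here.

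**Figure D3:**
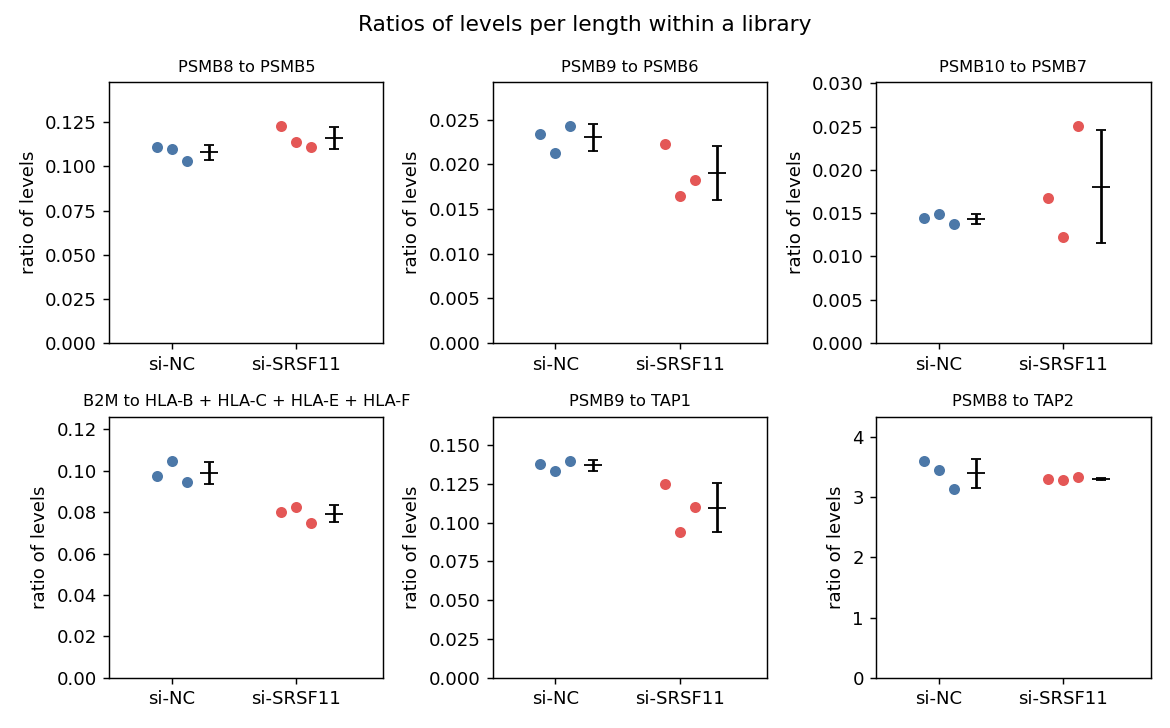
Ratios of levels per length within each library for 6 gene pairs (points), with mean and SD, n = 3 per group. The ratio of B2M to the sum of HLA-B, HLA-C, HLA-E and HLA-F and that of PSMB9 to TAP1 are lower in every si-SRSF11 library, and those of PSMB9 to PSMB6, PSMB10 to PSMB7 and PSMB8 to TAP2 overlap.

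Neither subunit of the peptide transporter was called. TAP1 (ENSG00000168394, chr6:32845209-32853978, minus strand) had 54.5, 50.8 and 53.5 CPM in si-NC and 52.5, 54.3 and 55.9 CPM in si-SRSF11. The groups overlapped (log2 fold change 0.04, SE 0.059, edgeR adjusted p = 0.71). TAP2, its partner subunit (ENSG00000204267, chr6:32821833-32838780, minus strand), had 23.6, 23.1 and 25.2 CPM in si-NC and 25.7, 27.0 and 27.0 CPM in si-SRSF11. All knockdown libraries were above all controls, but the difference was not called (log2 fold change 0.15, SE 0.079, edgeR adjusted p = 0.19). The TAP2 count carries a limit: 79.8% of its 100-base windows also occur in AL669918.1, an annotated same-strand gene that overlaps it and had 0 counts in all 6 libraries. How reads that fit both genes were counted is not given in the sources used here. The level of TAP2, its place in the order and the ratio of PSMB8 to TAP2 carry the same limit.

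Tapasin, which bridges the transporter and an empty heavy chain, came closest to the threshold among the members not called. TAPBP (ENSG00000231925, chr6:33299694-33314387, minus strand) had 114, 106 and 114 CPM in si-NC and 124, 119 and 122 CPM in si-SRSF11. The groups did not overlap, and the means were 111 ± 4.57 and 122 ± 2.82 (log2 fold change 0.13, SE 0.049, edgeR adjusted p = 0.057).

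Neither immunoproteasome subunit was called, and PSMB9 had the fewest counts of the 9 members. PSMB8, which replaces PSMB5 (ENSG00000204264, chr6:32840717-32844703, minus strand), had 40.0, 37.4 and 37.0 CPM in si-NC and 39.8, 41.6 and 42.1 CPM in si-SRSF11. The groups overlapped through the first library of each (log2 fold change 0.11, SE 0.065, edgeR adjusted p = 0.23). PSMB9, which replaces PSMB6 (ENSG00000240065, chr6:32844136-32859585, plus strand), had only 70, 66 and 75 counts in si-NC and 66, 53 and 64 in si-SRSF11. In CPM these were 4.82, 4.33 and 4.81 against 4.21, 3.25 and 3.92, lower in every knockdown library. The difference had the largest size and the largest error of the 9 and was not called (log2 fold change -0.29, SE 0.18, edgeR adjusted p = 0.26), and it ranged from -0.38 without si-SRSF11 replicate 1 to -0.19 without si-SRSF11 replicate 2. Exons of PSMB8 share 20.6% of their bases with PSMB8-AS1 on the opposite strand, which had at most 18 counts in a library. PSMB9 shares 5.66% of its exon bases with PSMB8-AS1 on the same strand and 4.52% with PSMB8 on the opposite strand. TAP1 shares 9.49% with PSMB8-AS1 on the opposite strand. How reads in these shared bases were counted is not given in the sources used here, which limits the low counts of PSMB9 most.

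The constitutive subunits were more abundant than their inducible counterparts. The ratio of PSMB9 to PSMB6 per length was 0.0234, 0.0213 and 0.0243 in si-NC and 0.0223, 0.0164 and 0.0182 in si-SRSF11, with overlap (exact permutation p = 0.20). The ratio of PSMB8 to PSMB5 was 0.108 ± 0.00445 in si-NC and 0.116 ± 0.00588 in si-SRSF11, where the groups came apart by less than the third digit (exact permutation p = 0.10). The ratio of PSMB10 to PSMB7, the one inducible subunit gene outside the MHC, was 0.0144, 0.0149 and 0.0137 in si-NC and 0.0168, 0.0122 and 0.0251 in si-SRSF11, with overlap (exact permutation p = 0.50). Its log2 difference of 0.33 rested on the third knockdown library and was 0.02 without it, and 31.7% of the 100-base windows of PSMB10 also occur in AC040162.1, which had 9 to 37 counts. A RefSeq promoter window of TAP1 overlaps that of PSMB9 on the opposite strand, whereas the counted gene model of PSMB9 spans all of TAP1. The ratio of PSMB9 to TAP1 was 0.138, 0.133 and 0.140 in si-NC and 0.125, 0.0938 and 0.110 in si-SRSF11, without overlap (exact permutation p = 0.10). With TAP1 at a log2 fold change of 0.04, this ratio largely repeats the difference of PSMB9, which was not called (edgeR adjusted p = 0.26). The ratio of PSMB8 to TAP2 was 3.40 in si-NC and 3.31 in si-SRSF11, with overlap (exact permutation p = 0.70). In all 6 ratios were tested, and none can pass 0.05 with 3 libraries per group. With principal transcripts the si-NC means were 0.211 for PSMB8 to PSMB5 and 0.0532 for PSMB9 to PSMB6, so the constitutive subunits stayed the more abundant.

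The rest of the pathway was read from lists of 58 other genes, 53 of them tested, and 15 of these were called higher, 3 lower and 35 not called, against 24.6% of all tested genes called, 13.2% higher and 11.4% lower. None of the lists below was tested as a set. Their median log2 fold change was 0.02, against 0.11 for the 9 members. The list with the most calls was that of the ER. Of its 9 genes for peptide loading and trimming 6 were higher and none lower, with a median log2 fold change of 0.23. The largest was GANAB, the catalytic subunit of glucosidase II that trims glycans of new glycoproteins (log2 fold change 0.60, SE 0.043, edgeR adjusted p = 1.4e-09), followed by the loading complex chaperone CALR (0.42, adjusted p = 4e-07). PDIA3, which pairs with tapasin in that complex, rose by 0.27 on the same scale (adjusted p = 8.8e-05) and the chaperone CANX by 0.21 (adjusted p = 0.0012). GANAB, CALR, PDIA3 and CANX serve the folding of glycoproteins in general as well as class I molecules. Also called higher were ERAP2 (log2 fold change 0.32, edgeR adjusted p = 0.0052) and HSPA5 (0.13, 0.018), both named after their values were seen.

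**Figure D4:**
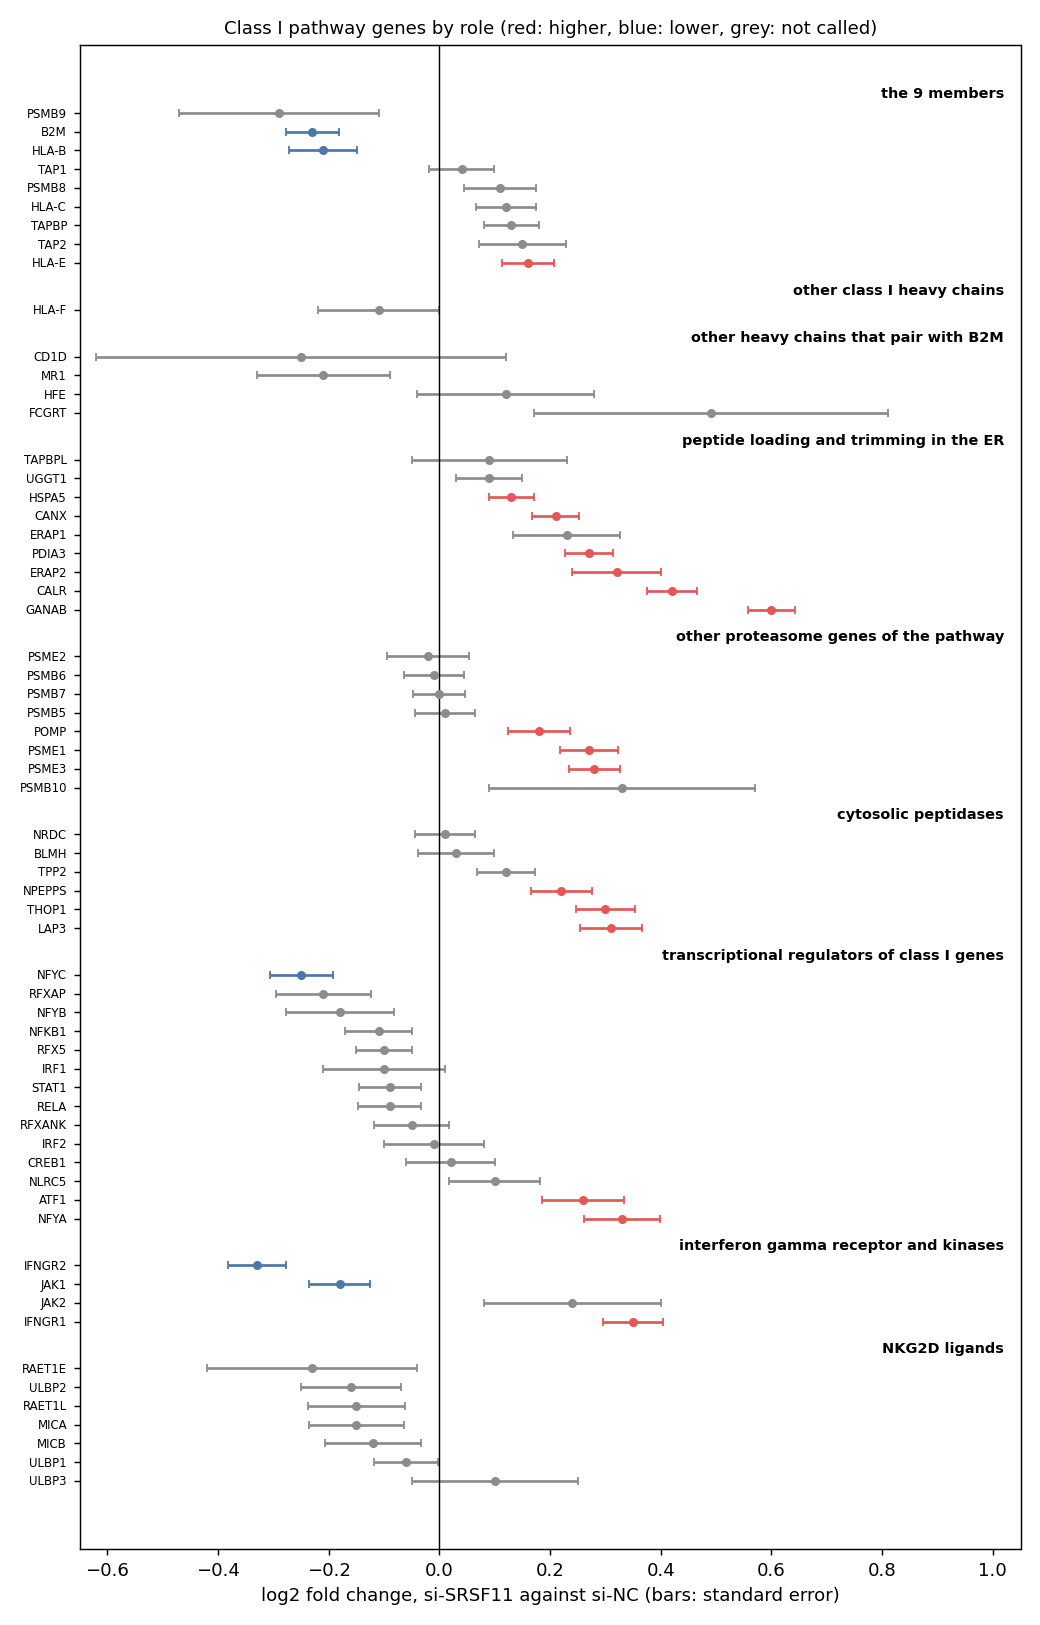
Log2 fold change (si-SRSF11 against si-NC) with SE for the 9 members and the other tested pathway genes, grouped by role, with edgeR calls at an adjusted p under 0.05 in red (higher), blue (lower) or grey (not called). The ER loading list holds 6 higher calls, from 0.13 to 0.60, and the NKG2D ligands none.

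Among 8 other proteasome genes 3 were higher and none lower (median 0.09). The regulators PSME3 (log2 fold change 0.28, edgeR adjusted p = 9.4e-05) and PSME1 (0.27, 0.00046) and the assembly factor POMP (0.18, 0.021) were the ones called, while the constitutive subunits PSMB5 (0.01), PSMB6 (-0.01) and PSMB7 (0.00) were not. Of 6 cytosolic peptidases 3 were higher (median 0.17): THOP1 (log2 fold change 0.30, edgeR adjusted p = 0.00027), LAP3 (0.31, 0.00033) and NPEPPS (0.22, 0.0057).

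Upstream of the 9 genes, 14 transcriptional regulators of class I genes had a median log2 fold change of -0.09, with 2 called higher and 1 lower. Of the CCAAT box binding complex, the subunit NFYA rose (log2 fold change 0.33, edgeR adjusted p = 0.00099) and NFYC fell (-0.25, adjusted p = 0.0030), while NFYB, named after its values were seen, was not called (-0.18, adjusted p = 0.19). ATF1, which binds cAMP response elements, rose (0.26, adjusted p = 0.014). The class I transactivator NLRC5, named after its values were seen, had 26.8 ± 0.958 CPM in si-NC and 28.7 ± 2.70 in si-SRSF11 with overlap (log2 fold change 0.10, edgeR adjusted p = 0.41). The 2 chains of the interferon gamma receptor were called in opposite directions, IFNGR1 higher (log2 fold change 0.35, edgeR adjusted p = 4.5e-05) and IFNGR2 lower (-0.33, adjusted p = 7.8e-05), and the receptor kinase JAK1 was lower (-0.18, adjusted p = 0.017).

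None of 7 tested NKG2D ligands, stress signals that natural killer cells read beside class I, was called (median -0.15), and none of 4 tested other partners of B2M was (median -0.04). Class II presentation was nearly silent. Of 12 class II genes 2 passed the filter and neither was called, and 5 were at 0 in all libraries, HLA-DRA among them. Of 11 class I pseudogenes 5 were tested and none was called.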

How the data were processed

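Poly(A) RNA of LoVo cells was read in pairs of 150 bp. The table that the authors deposited holds unnormalized gene counts of all 6 libraries on hg38, and the gene models match GENCODE release 29. The aligner, the counting program and its strand setting are not given in the sources used here, nor is which SRSF11 siRNA was used. Samples were grouped by the deposited labels.

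Genes reaching 10 counts in 3 or more libraries were tested with the quasi-likelihood test of edgeR (version 4.0.16, R version 4.3.3) after TMM scaling, with group as the only term. Adjusted p-values are Benjamini-Hochberg values over the 15801 genes tested. The script was tested on simulated data. SE was the log2 fold change divided by the root of F. CPM are counts relative to the TMM-scaled library total, and levels are CPM per 1000 bases. For ratios, an exact permutation test (two-sided) was run. Reads without molecular identifiers are not independent molecules, and totals of 14369525 to 16685719 counts limit precision mainly for PSMB9. Promoter windows were searched in RefSeq sequences (GRCh38.p14). The alternatives were DESeq2 (version 1.42.0), other scalings and filters, protein-coding genes only, a replicate block, summed heavy chains, omission of mitochondrially encoded genes, and each library left out.

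The members and gene lists were chosen with earlier results of these data known. Named were all members, SRSF11, at most 4 called genes with the smallest adjusted p of each pathway list, the highest and lowest of a list for levels, the genes of the ratios, and the 3 genes most like B2M. Other names are marked. A gene that was taken out of the lists and sums afterwards is not reported here.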

Additional observations from a re-analysis of the deposited data

How the results depend on the processing

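The log2 fold changes of the 9 members and SRSF11 kept their direction under each alternative run, except that TAP1 stood at 0.00 (edgeR adjusted p = 0.99) with scaling by library size alone. With all libraries 3 members were called, and between 1 and 3 were called when 1 library was left out. The lowest, 1, was without si-NC replicate 2, where B2M alone was called. Without si-SRSF11 replicate 1 the 3 calls were B2M, HLA-E and HLA-C, since HLA-B was lost and HLA-C joined. With HLA-B, HLA-C, HLA-E, HLA-F, HLA-G and the pseudogenes summed, 1 of the 6 remaining members was called (B2M), since the 3 HLA members are no longer separate features. Over all genes 3072 were called by DESeq2 and 2741 to 3871 by edgeR without 1 library. Same-numbered libraries of the 2 groups correlated at 0.0151 to 0.0403 in their deviations from the group means. Differently numbered ones correlated at -0.0337 to -0.00314, so each library correlated best with its own number, and the study speaks of paired RNA samples. All were below 0.1, a limit for counting them as pairs that was set without a test, and the main fit left the pairing out. With the replicate block 4036 genes and 4 members were called, TAPBP joining at a log2 fold change of 0.13 (edgeR adjusted p = 0.046). Scaling moved the median of all genes to between -0.033 and 0.002. Levels per length rose for every member with principal transcripts, from 12.7 to 33.9 for PSMB8 and from 1.51 to 5.95 for PSMB9. At 53 to 75 counts PSMB9 carried an SE of 0.18, so its log2 fold change of -0.29 was not distinguishable from 0 at this depth.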
